A study of Mus musculus with 12 samples.

Results

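The 8 genes described here are Snai1, Snai2, Twist1, Twist2, Zeb1, Zeb2, Prrx1 and Cdh2, taken as every array probe that carries one of these symbols. Of the 8 genes, 7 had a probe and were tested, among 10144 genes tested in all, and they had 15 of the 25697 probes on the array. Snai2 was not analysed here. A probe was kept when its detection p-value, from the scanner's comparison with negative controls, was under 0.05 on at least 2 arrays, and 13 of the 15 probes were kept.

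RNA was measured on 12 single-colour Illumina bead arrays of mouse cells, with 6 groups of 2 arrays. The peripheral neural stem cells, abbreviated pNSCs, of embryonic limb formed the groups elpNSCs-early and elpNSCs-late, and those from adult lung formed alpNSCs-early and alpNSCs-late. Control-NSC held control neural stem cells, and Fibroblasts held mouse fibroblasts whose tissue the labels do not give. Every group carries the same strain label, a mixture of C57BL/6, CD1 and C3H. The labels name no treatment, no age in days or weeks and no passage behind early and late. The paper shows array profiles of embryonic limb and adult lung lines derived after low-pH treatment. The labels do not say whether the pNSC groups here are those lines. According to the methods, pNSC clusters were picked by hand and were usually clonal, so a pNSC group may stand for few founder cells. The methods describe the hybridized replicates as biological, without saying what made them separate, and the spread behind each p-value is that between such replicates.

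Between 11801 and 12836 probes were detected per array, and 2 arrays per group limit the precision. The group labels were checked against cell type markers. The summed intensity of 8 fibroblast markers was 21055 to 21585 in Fibroblasts and 169.8 to 749.2 on the neural arrays. That of 10 neural stem cell markers was 836 to 846 in Fibroblasts and 26417 to 34882 on the neural arrays, although Pax6, Sox1 and Msi1 were not above background in any group. Markers of smooth muscle and pericytes summed to 4615 to 4834 in Fibroblasts against 120.7 to 722.9 on the neural arrays, those of blood and macrophages to 618 to 724 against 57.5 to 64.7, and those of endothelium to 635 to 765 against 103.3 to 122.9. On both Fibroblasts arrays Lyz2 and Cd52, 2 of 3 blood markers, and Tek and Cd34, 2 of 5 endothelial markers, were above background, whereas Ptprc, Pecam1, Cdh5 and Kdr were on neither. Of 6 smooth muscle and pericyte markers, 4 were above background on both Fibroblasts arrays, and Myh11 and Cnn1 on neither. The part of other cell types in the differences between groups was not tested. In these bulk samples, fewer cells of a type and less RNA per cell cannot be told apart.

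Snai, Twist and Zeb proteins are the core transcription factors of the epithelial-mesenchymal transition, in which epithelial cells lose their junctions and become motile. Snai and Zeb proteins are zinc finger repressors that bind E-box sequences such as CACCTG, among others in the promoter of Cdh1 (E-cadherin). Twist proteins are basic helix-loop-helix factors that bind CANNTG, the general E-box. Prrx1 is a homeobox factor of limb and other mesenchyme, and Cdh2 encodes N-cadherin, the adhesion molecule that often replaces E-cadherin during the transition and is also abundant in neural progenitors. Zeb1 and Zeb2 also act in the developing nervous system, and all of these factors are used in the embryo by neural crest or mesoderm.

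The promoters of the members whose RNA was higher in Fibroblasts are shown, since these members moved together. Each RefSeq window of assembly GRCm38.p6 runs from 250 bases before to 50 bases after the annotated start, is written 5′ to 3′ on the gene's strand, and has any CANNTG match on either strand in capitals. They lie at chr2:167537945-167538244 on the plus strand, chr12:33957421-33957720 on the plus strand, chr1:91801211-91801510 on the plus strand and chr1:163313601-163313900 on the minus strand, in the order below.
Snai1: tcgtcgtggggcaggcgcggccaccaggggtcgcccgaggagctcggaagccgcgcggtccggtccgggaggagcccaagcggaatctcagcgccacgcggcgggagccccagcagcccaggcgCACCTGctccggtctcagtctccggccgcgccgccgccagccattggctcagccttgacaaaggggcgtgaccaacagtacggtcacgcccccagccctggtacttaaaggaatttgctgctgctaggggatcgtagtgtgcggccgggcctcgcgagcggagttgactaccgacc
Twist1: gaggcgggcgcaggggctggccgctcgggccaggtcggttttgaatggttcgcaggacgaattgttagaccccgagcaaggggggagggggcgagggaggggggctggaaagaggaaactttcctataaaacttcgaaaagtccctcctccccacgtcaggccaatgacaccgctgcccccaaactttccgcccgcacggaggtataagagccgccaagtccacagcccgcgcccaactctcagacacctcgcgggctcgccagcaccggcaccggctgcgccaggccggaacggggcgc
Twist2: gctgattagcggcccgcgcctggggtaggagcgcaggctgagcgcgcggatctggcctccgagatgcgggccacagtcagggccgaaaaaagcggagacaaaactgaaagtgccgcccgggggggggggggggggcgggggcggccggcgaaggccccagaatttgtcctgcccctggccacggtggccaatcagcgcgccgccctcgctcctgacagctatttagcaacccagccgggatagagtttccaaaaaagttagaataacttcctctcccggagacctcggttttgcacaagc
Prrx1: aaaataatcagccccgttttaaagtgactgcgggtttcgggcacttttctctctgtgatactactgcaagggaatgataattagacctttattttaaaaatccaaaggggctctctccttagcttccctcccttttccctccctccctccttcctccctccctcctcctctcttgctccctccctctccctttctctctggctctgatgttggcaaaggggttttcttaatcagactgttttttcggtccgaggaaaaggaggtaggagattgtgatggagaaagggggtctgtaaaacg
The Snai1 window held 1 match, a CACCTG whose first base lies 126 bases upstream of the start, and this hexamer is also a CANNTG. The Twist1, Twist2 and Prrx1 windows held 0 matches to CANNTG, which is its own reverse complement. Among all 32851 windows, 20.2% held CACCTG on either strand and 72.3% held CANNTG. These are matches of letters and no binding was measured.

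Fibroblasts were set against each neural group to ask which members distinguish the 2 kinds of cell. Twist2, Twist1, Snai1 and Prrx1 were higher in Fibroblasts than in each of the 5 neural groups, whereas Zeb1 and Cdh2 were lower in Fibroblasts in each of the 5. Zeb2 was lower in Fibroblasts than in some of the pNSC groups. One limma model over all 12 arrays gave the tests, with Benjamini-Hochberg adjustment over all genes, and called means adjusted p under 0.05. Of the 7 members, 6 were called against Control-NSC (61.9% of all genes were called), 7 against elpNSCs-early (59.1%), 7 against alpNSCs-early (60.6%), 7 against elpNSCs-late (63.0%) and 6 against alpNSCs-late (62.1%). Most genes differed in these comparisons, so the counts alone do not set the members apart. Being higher in Fibroblasts in all 5 comparisons held for 4 of 7 members and 19.7% of all genes, and being lower in all 5 held for 2 of 7 members and 23.6% of all genes. Twist2 passed the detection filter through the Fibroblasts arrays alone, so it had to be higher there to be tested. Of the 6 members detected in both kinds of cell, 3 were higher and 2 lower in all 5 comparisons, against 17.5% and 24.3% of the 8573 genes detected in both. The 5 comparisons share the same 2 Fibroblasts arrays.

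**Figure D1:**
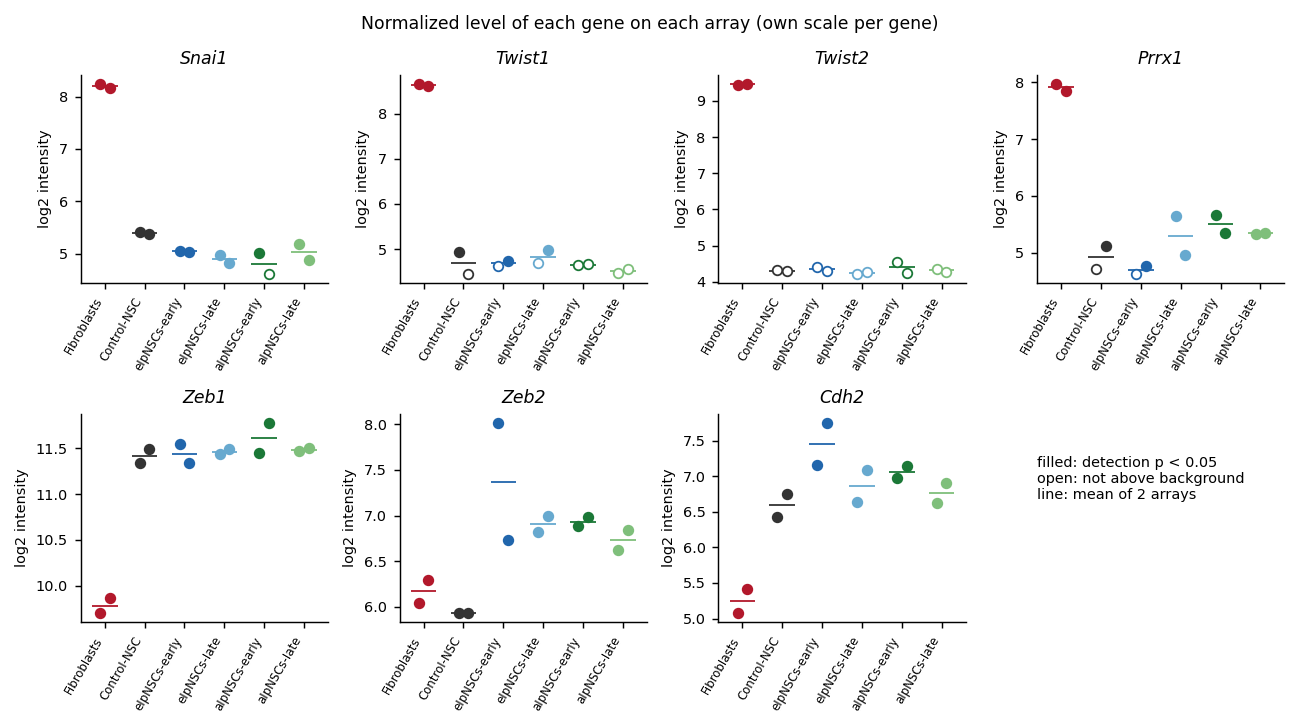
Normalized log2 intensity (vertical axes, a separate scale for each gene) of 7 genes on each of 12 arrays by group (horizontal axes), with filled points where detection p was under 0.05, open points where it was not, and a line at the mean of 2 arrays. Snai1, Twist1, Twist2 and Prrx1 sit above every neural array in Fibroblasts, Zeb1 and Cdh2 sit below, and the Zeb2 values overlap.

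Twist2 encodes a Twist factor expressed in dermal and other mesenchyme. Its log2 intensity was 9.45 and 9.47 on the 2 Fibroblasts arrays. On the 10 neural arrays it ran from 4.22 through a median of 4.28 to 4.54, and none of them was above background, so the groups did not overlap. Here and below, such separation describes 2 arrays against 10, and the share of all genes that show it was not counted. Where a group had no detected array, the fold is a lower bound that uses, per array, the higher of the probe's own value and the lowest detected signal. Twist2 was thus at least 26.0-fold higher in Fibroblasts than in Control-NSC, at least 27.2-fold higher than in elpNSCs-early, at least 26.3-fold higher than in alpNSCs-early, at least 26.7-fold higher than in elpNSCs-late and at least 26.4-fold higher than in alpNSCs-late. The adjusted p from limma lay between 2.1e-12 and 2.8e-12.

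Twist1, the factor required for cranial neural tube closure and limb bud mesenchyme, was at 8.66 and 8.61 on the Fibroblasts arrays. On the neural arrays it ran from 4.45 through 4.65 to 4.97, and 3 of 10 were above background, 1 each in Control-NSC, elpNSCs-early and elpNSCs-late. Every neural array was thus near the background level, far below Fibroblasts. Twist1 was 15.4-fold higher in Fibroblasts than in Control-NSC (log2 difference 3.94, SE 0.15, adjusted p = 2.5e-10 by limma), 15.5-fold higher than in elpNSCs-early and 14.0-fold higher than in elpNSCs-late. It was at least 14.9-fold higher than in alpNSCs-early and at least 15-fold higher than in alpNSCs-late, where no array was above background.

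Snai1 encodes Snail, a direct repressor of Cdh1. It was at 8.24 and 8.17 on the Fibroblasts arrays and ran from 4.62 through 5.02 to 5.41 on the neural arrays, of which 9 of 10 were above background. Unlike Twist2, whose neural arrays were all at background, Snai1 thus gave a low signal in nearly all of them. The log2 difference was 2.81 against Control-NSC, 3.16 against elpNSCs-early, 3.39 against alpNSCs-early, 3.31 against elpNSCs-late and 3.17 against alpNSCs-late (SE 0.15 each). These are 6.99-fold to 10.5-fold higher levels in Fibroblasts, with limma's adjusted p from 6.6e-10 to 4.1e-09. The second Snai1 probe, ILMN_1241355, was detected on the 2 Fibroblasts arrays alone, at 4.91 and 5.06 against 4.26 to 4.62 on the neural arrays, with log2 differences of 0.51 to 0.70 when each probe was tested on its own. Both probes went the same way in all 5 comparisons, but the second was near background. It passed the detection filter through the Fibroblasts arrays alone, so its direction is no separate support.

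Prrx1 was at 7.97 and 7.85 on the Fibroblasts arrays and ran from 4.64 through 5.24 to 5.67 on the neural arrays, 8 of 10 of them above background. The groups did not overlap. The log2 difference was 2.98 against Control-NSC, 3.2 against elpNSCs-early, 2.40 against alpNSCs-early, 2.60 against elpNSCs-late and 2.57 against alpNSCs-late (SE 0.21 each), or 5.28-fold to 9.22-fold, with limma's adjusted p from 3.7e-08 to 6.2e-07. Of its 4 probes, 3 were kept and were called higher in Fibroblasts in all 5 comparisons. The remaining probe, ILMN_3134079, was detected on 1 Fibroblasts array, and its values overlapped between Fibroblasts and the neural arrays.

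Zeb1, the zinc finger homeobox repressor of epithelial genes, was detected on every array. It was at 9.70 and 9.86 in Fibroblasts and ran from 11.34 through 11.48 to 11.77 on the neural arrays, so the groups did not overlap. In Fibroblasts the level was 3.10-fold lower than in Control-NSC (log2 difference -1.63, SE 0.14, adjusted p = 3.9e-07 by limma), 3.16-fold lower than in elpNSCs-early, 3.55-fold lower than in alpNSCs-early, 3.21-fold lower than in elpNSCs-late and 3.25-fold lower than in alpNSCs-late. Zeb1 therefore ran opposite to Snai1 and the Twist genes while remaining well detected in Fibroblasts. Like Twist1 and Twist2, it had 1 probe on the array, so no second probe could check its direction.

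Cdh2 was at 5.08 and 5.41 in Fibroblasts and ran from 6.43 through 6.94 to 7.75 on the neural arrays. It was detected on all 12 arrays, and the groups did not overlap. The log2 difference was -1.35 against Control-NSC, -2.21 against elpNSCs-early, -1.82 against alpNSCs-early, -1.63 against elpNSCs-late and -1.52 against alpNSCs-late (SE 0.22 each), that is 2.54-fold to 4.62-fold lower in Fibroblasts, with limma's adjusted p from 2.0e-06 to 0.00015. Of the 4 Cdh2 probes, 3 were called lower in Fibroblasts in all 5 comparisons, and ILMN_2605504, detected on 4 neural arrays and on 0 Fibroblasts arrays, in 3 of 5.

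Zeb2, the other Zeb family gene, which also guides neural crest and cortical development, was detected on all 12 arrays. It was at 6.04 and 6.30 in Fibroblasts, 5.93 and 5.93 in Control-NSC, 8.01 and 6.73 in elpNSCs-early, 6.88 and 6.98 in alpNSCs-early, 6.82 and 7.0 in elpNSCs-late and 6.62 and 6.84 in alpNSCs-late. The Fibroblasts arrays lay just above Control-NSC and below all 8 pNSC arrays, and replicate 1 of elpNSCs-early stood above every other array. Zeb2 was lower in Fibroblasts than in elpNSCs-early (log2 difference -1.20, SE 0.29, adjusted p = 0.0036 by limma), alpNSCs-early (-0.76, adjusted p = 0.040) and elpNSCs-late (-0.74, adjusted p = 0.043). It was not called against alpNSCs-late (-0.57, 95% interval -1.21 to 0.08, adjusted p = 0.11) or Control-NSC (0.24, 95% interval -0.40 to 0.88, adjusted p = 0.51). The 2 elpNSCs-early arrays had an SD of 0.91, against at most 0.18 in each other group. Leaving out either of them removes most of the spread behind the tests and leaves 1 array in that group. Without replicate 1 of elpNSCs-early the first difference was -0.56, and a call from such a fit is not a check of the replicates. The call against alpNSCs-early was lost without any 1 array of alpNSCs-early, elpNSCs-late, Control-NSC or Fibroblasts (adjusted p up to 0.19), and that against elpNSCs-late without any 1 array outside elpNSCs-early (up to 0.20). Against alpNSCs-late, Zeb2 was called without either elpNSCs-early array, where that smaller spread applies. The second Zeb2 probe was not above background on any array.

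**Figure D2:**
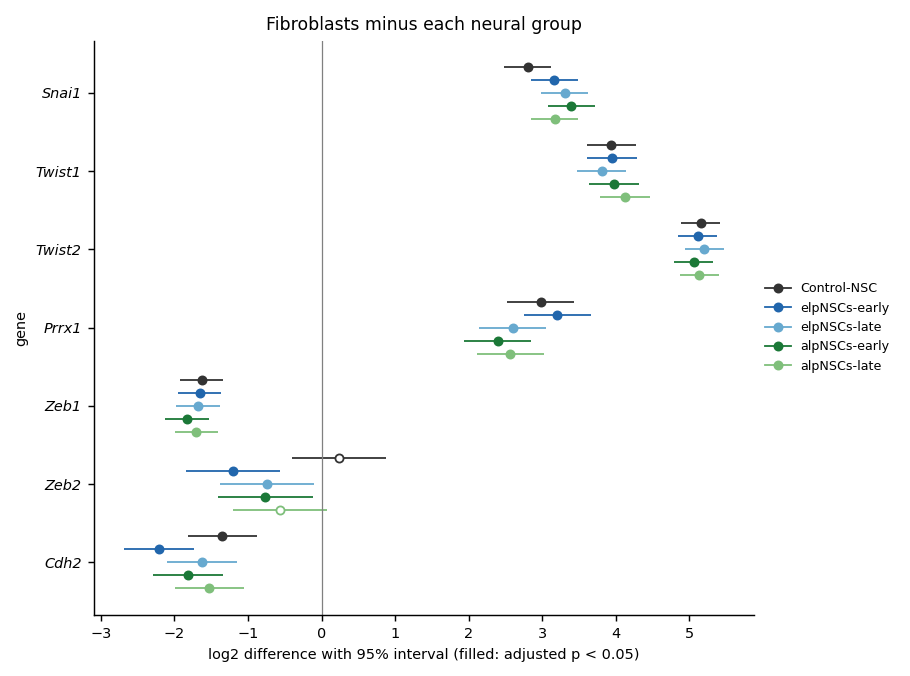
Log2 difference, Fibroblasts minus each neural group (horizontal axis), for 7 genes (vertical axis), with 95% intervals from the limma fit and filled points at adjusted p under 0.05. Twist2 lies between 5.06 and 5.21, Zeb1 between -1.83 and -1.63, and the Zeb2 intervals against Control-NSC and alpNSCs-late cross 0.

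**Figure D3:**
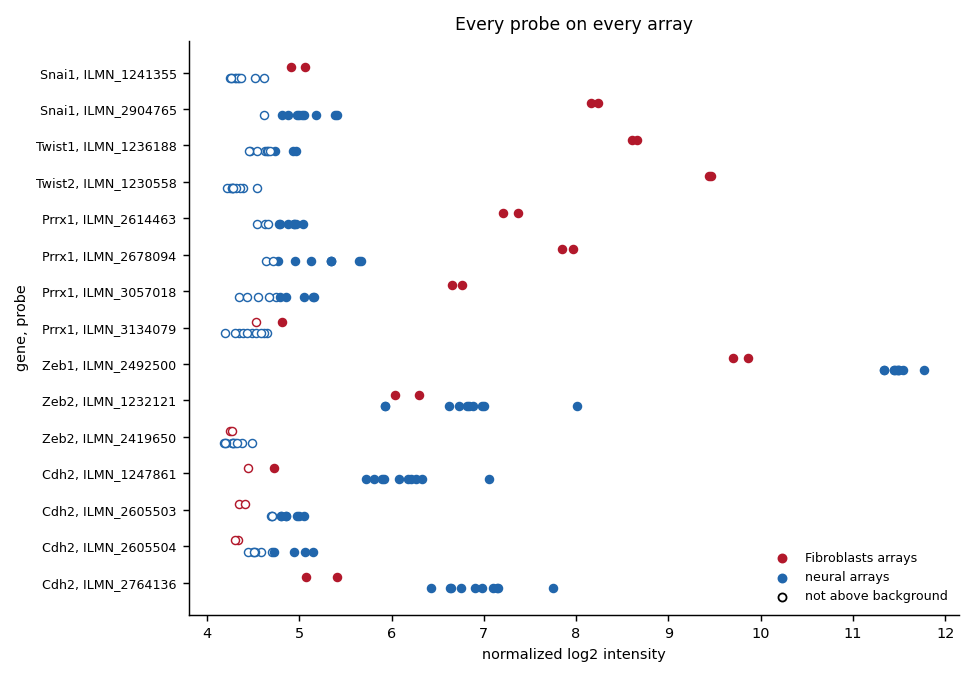
Normalized log2 intensity (horizontal axis) of all 15 probes of the 7 genes (vertical axis) on the 2 Fibroblasts arrays and the 10 neural arrays, with open points where a probe was not above background. The 2 Snai1 probes and 3 of the Prrx1 probes are higher in Fibroblasts on every array, and the 4 Cdh2 probes are lower.

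Each pNSC group was then compared with Control-NSC to ask whether cells from limb and lung kept levels apart from control neural stem cells. Zeb2 was the member with the widest difference, and Twist1, Twist2 and Zeb1 were called in none of these comparisons. Twist2 was at background on all of these arrays. Twist1 was so in both alpNSC groups and on 1 of 2 arrays in each other neural group. For Twist1 and Twist2 a missing call, here and in the later comparisons among neural groups, is therefore not a measured equality. The count of called members was 2 of 7 in elpNSCs-early (26.1% of all genes called), 2 for alpNSCs-early (18.2%), 2 for elpNSCs-late (15.3%), 0 for alpNSCs-late (12.4%) and 2 for the mean of the 4 pNSC groups (19.7%). With so few members these counts are a description. The same 2 Control-NSC arrays enter all of them.

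Zeb2 was higher than in Control-NSC in elpNSCs-early (log2 difference 1.44, adjusted p = 0.0033 by limma), alpNSCs-early (1.00, adjusted p = 0.033), elpNSCs-late (0.98, adjusted p = 0.042) and the mean of the 4 groups (1.05, adjusted p = 0.0064). All 8 pNSC arrays were above both Control-NSC arrays. The difference of 0.80 in alpNSCs-late was not called (95% interval 0.16 to 1.44, adjusted p = 0.11). Without replicate 1 of elpNSCs-early the difference in that group was 0.80, from the 1 array left. The call in alpNSCs-early was lost without any 1 array of alpNSCs-early, Control-NSC or Fibroblasts (adjusted p up to 0.15), that in elpNSCs-late without any 1 array outside elpNSCs-early (up to 0.19), and that of the mean without either Control-NSC array (up to 0.069). In alpNSCs-late, Zeb2 was called without either elpNSCs-early array, that is with most of the spread between replicates removed.

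Snai1 was lower than in Control-NSC, at 5.41 and 5.38, in alpNSCs-early (5.0 and 4.62, log2 difference -0.59, adjusted p = 0.014 by limma) and in elpNSCs-late (4.98 and 4.82, -0.50, adjusted p = 0.038). The mean of the 4 pNSC groups was lower by -0.45 (adjusted p = 0.015). Snai1 in alpNSCs-early was above background on 1 of 2 arrays, and without its replicate 2 the difference was -0.40, with adjusted p = 0.14. Without either Control-NSC array the calls in alpNSCs-early, elpNSCs-late and the mean were lost, at adjusted p up to 0.081, 0.16 and 0.13. The call in elpNSCs-late was also lost without any 1 array of elpNSCs-late or Fibroblasts, at adjusted p up to 0.20. The second Snai1 probe was at background on all of these arrays.

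Cdh2 was higher in elpNSCs-early, at 7.16 and 7.75, than in Control-NSC, at 6.43 and 6.76 (log2 difference 0.86, SE 0.22, adjusted p = 0.011 by limma). The call was lost without elpNSCs-early replicate 2 (difference 0.56) and without Control-NSC replicate 1 (0.70). In the other pNSC groups the difference from Control-NSC was 0.18 to 0.47 and was not called. For the mean of the 4 groups it was 0.45 and was not called (adjusted p = 0.095 by limma), and it was 0.52 without elpNSCs-early replicate 1. Prrx1 differed from Control-NSC by 0.59 in alpNSCs-early (adjusted p = 0.077 by limma) and by 0.38 in elpNSCs-late (adjusted p = 0.29), and neither was called. In Control-NSC it was above background on 1 of 2 arrays. Tested on their own, the other kept Prrx1 probes gave 0.45 and 0.34 (ILMN_3057018) and 0.01 and 0.02 (ILMN_2614463), none of them called. Without replicate 2 of elpNSCs-late the difference in that group was 0.73, from the 1 array left.

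Late and early pNSCs were compared within each tissue, and lung with limb pNSCs between tissues. Limb pNSCs were embryonic and lung pNSCs adult, so tissue, donor stage and line cannot be told apart between them. No member was called in limb (0 of 7, 23.8% of all genes called) or in lung (0 of 7, 4.83%). In limb, Prrx1 was at 4.64 and 4.77 in early cells, where 1 of 2 arrays was above background, and at 5.65 and 4.96 in late cells. The log2 difference of 0.60 was not called (95% interval 0.14 to 1.06, adjusted p = 0.057 by limma) and was 0.95 without replicate 2 of elpNSCs-late. For Cdh2 the late-early difference in limb was -0.58 (95% interval -1.05 to -0.11, adjusted p = 0.075), and it was -0.88 without elpNSCs-early replicate 1. For Zeb2 it was -0.46 (adjusted p = 0.31), and it was -1.10 without elpNSCs-early replicate 2, which leaves the higher array alone in elpNSCs-early. Between tissues, Prrx1 was higher in alpNSCs-early, at 5.67 and 5.35, than in elpNSCs-early (log2 difference 0.81, adjusted p = 0.025 by limma). It was the single call among 7 members (12.5% of all genes), and it too is set against elpNSCs-early levels at or near background. Tested on their own, the other kept Prrx1 probes gave 0.55 (ILMN_3057018, adjusted p = 0.065) and -0.12 (ILMN_2614463, adjusted p = 0.73), so the 3 probes did not go the same way. The call was lost without elpNSCs-early replicate 1 (0.74, adjusted p = 0.099) and without alpNSCs-early replicate 1 (0.64, adjusted p = 0.19). Zeb2 in alpNSCs-early differed from elpNSCs-early by -0.44 (adjusted p = 0.41 by limma), and by -1.08 without elpNSCs-early replicate 2. Late lung and limb pNSCs differed in 0 of 7 members (10.9% of all genes), and the late-early change differed between the tissues in 0 of 7 (5.66%). That difference of changes was 0.90 for Zeb2 without elpNSCs-early replicate 2 and -1.11 for Prrx1 without elpNSCs-late replicate 2. Each of these rests on a group left with 1 array.

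**Figure D4:**
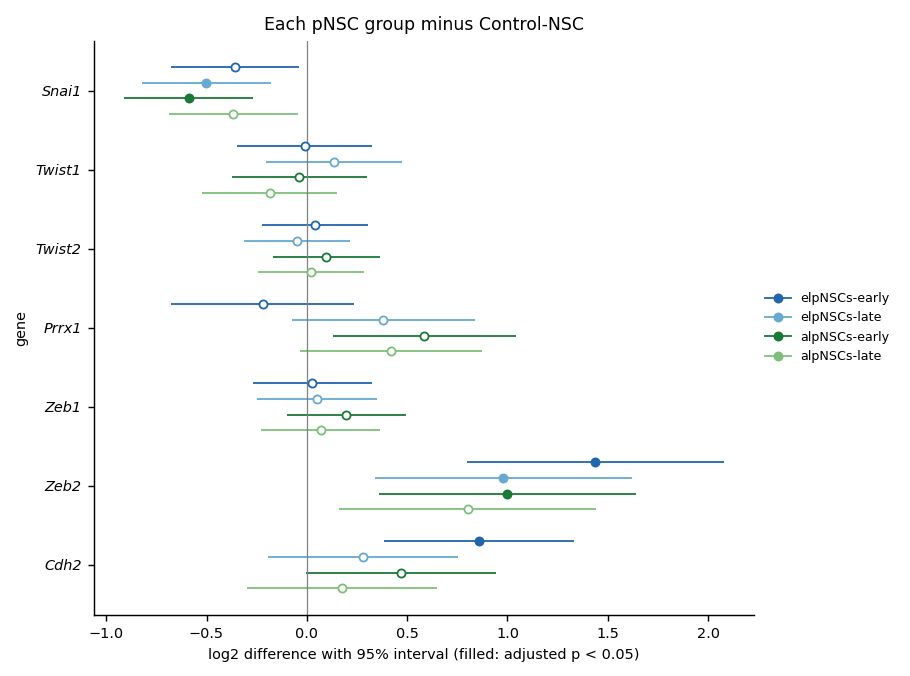
Log2 difference, each pNSC group minus Control-NSC (horizontal axis), for 7 genes (vertical axis), with 95% intervals from the limma fit and filled points at adjusted p under 0.05. Zeb2 is at 0.80 to 1.44, Snai1 is below 0 in all 4 groups, and the Twist1, Twist2 and Zeb1 intervals all include 0. Twist2 was at background in all of these groups and Twist1 at or near it.

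Ordered by mean level, Fibroblasts came first for Snai1, Twist1, Twist2 and Prrx1 and last for Zeb1 and Cdh2. Within the 5 neural groups no 2 neighbours in the order were called different for any member. For Zeb2 no neighbours were called different, Fibroblasts included, from elpNSCs-early at 7.37 down to Fibroblasts at 6.17 and Control-NSC at 5.93. The widest gap between neighbours was 0.57, from alpNSCs-late to Fibroblasts (adjusted p = 0.11 by limma). Some groups further apart in the order were called different.

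The genes whose log2 level was most like a member's over all 12 arrays were found by Pearson's r, as a description. The 12 arrays share their group structure, so these r mainly follow the split between Fibroblasts and neural cells. They were Cebpb (0.995), Srpx (0.994) and Podn (0.993) for Snai1, and Aox3 (0.998), Gbp2b and Aqp1 (0.997 each) for Twist1. For Twist2 they were Vamp8, Eva1b and Prl2c4 (each at least 0.999), for Prrx1 Plcd3 (0.981), Ltc4s (0.980) and Sik1 (0.979), and for Zeb2 Zfp974 (0.913), Ankrd17 (0.898) and Usp25 (0.897). For Zeb1 they were Astn1, Slc1a3 and Asb13 (0.990 each), and for Cdh2 Tmtc2 (0.987), Tbc1d1 (0.977) and Rab10 (0.974). Over the 10 neural arrays alone, the closest genes were Hint3 (0.949) for Snai1, Fiz1 (0.915) for Zeb1, Ankrd17 (0.941) for Zeb2, Med4 (0.887) for Prrx1 and Cog6 (0.979) for Cdh2.

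Genes around these factors were followed in 6 lists. Of all genes tested, 19.7% were higher and 23.6% lower in Fibroblasts in all 5 comparisons, and the lists are read beside these shares. A gene detected on the Fibroblasts arrays alone entered the tests through the group where it was high, which moves the count and the median of its list upwards, and the counts are therefore also given for genes detected in both kinds of cell. Other mesenchymal, limb and lung transcription factors were mostly higher in Fibroblasts: of 22 tested, 15 were called higher and 2 lower in all 5 comparisons, and the list's median log2 difference was 1.14 to 1.26 against -0.13 to -0.11 over all genes. Of the 22, 8 were detected in Fibroblasts alone, and of the other 14, 7 were higher and 2 lower. These are 50% and 14.3%, against 17.5% and 24.3% of all genes detected in both kinds of cell. Osr2, a factor of limb and palate mesenchyme, was 14.5-fold to 88.9-fold higher, and Foxc2, a forkhead factor of mesoderm, was at least 8.78-fold higher than in Control-NSC, with adjusted p = 1.9e-11 by limma. Hic1, a marker of mesenchymal progenitors, was at least 6.63-fold higher than in Control-NSC. Sox9, which acts in cartilage and also in neural stem cells, was 2.34-fold to 4.65-fold lower in Fibroblasts. Snai3, the remaining Snai family gene, was at 6.79 in Fibroblasts and 6.85 in Control-NSC (log2 difference -0.06, adjusted p = 0.74).

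Mesenchymal markers and matrix targets gave the widest differences, with 27 of 30 tested higher and 0 lower in all 5 comparisons and list medians of 3.22 to 5.47. Of the 19 detected in both kinds of cell, 16 were higher, or 84.2% against 17.5% of all such genes. The matrix protease Mmp3 and the proteoglycan Dcn exceeded Control-NSC in Fibroblasts by at least 396-fold and 399-fold, respectively, with neither above background in Control-NSC. Vim, which encodes the intermediate filament vimentin and is also used by neural progenitors, was higher in Fibroblasts at 12.89 but was detected on every array, with neural group means from 10.92 to 12.36. The list holds Col1a1, which the study names as a fibroblast marker, and the other fibroblast markers used to check the labels, so its direction is not independent of the group labels.

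Epithelial genes that the transition represses were mostly at background. Of 40 listed genes, 37 were on the array and 14 passed the detection filter, of which 5 were higher and 0 lower in Fibroblasts in all 5 comparisons. The median over these 14 genes was 0.10 to 0.27, against -0.13 to -0.11 over all genes. Of the 5 higher genes, 3 were detected in Fibroblasts alone, and of 9 genes detected in both kinds of cell, 2 were higher and 0 lower. The 22.2% that were higher are near the 17.5% of all such genes, of which 24.3% were lower. Without elpNSCs-early replicate 1, 4 of the list were called against elpNSCs-early in place of 7. Cldn1, a tight junction claudin, was at least 9.39-fold higher than in Control-NSC, and Llgl2, a polarity gene, was at least 4.52-fold higher. Cdh1, the classical target of Snai and Zeb repressors, was above background on 1 array each of Fibroblasts, alpNSCs-early and alpNSCs-late, with mean levels of 4.56 in Fibroblasts and 4.66 in Control-NSC, where it was not detected. Cdh1 was thus at or near background in every group.

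TGF-beta and BMP ligands, receptors and other inducing signals were more often higher than lower in Fibroblasts, 19 against 5 of 35 in all 5 comparisons, with list medians of 0.79 to 0.97. Of the 27 detected in both kinds of cell, 12 were higher and 4 lower (44.4% and 14.8%, against 17.5% and 24.3% of all such genes). The ligand Bmp4 was at least 22.2-fold higher than in Control-NSC, the activin subunit gene Inhba at least 12.1-fold higher, and the receptor gene Tgfbr2 7.53-fold to 42.4-fold higher. Tgfbi, a matrix gene induced by TGF-beta, was at least 79.8-fold higher than in Control-NSC.

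Classical cadherins and their catenin partners did not move as a group, with 2 higher and 5 lower of 12 and list medians from -0.58 to 0.03. Of the 5 lower genes, 4 were detected on neural arrays alone, and of 7 detected in both kinds of cell, 1 was higher and 1 lower. That is 14.3% each, against 17.5% and 24.3% of all such genes. The catenin Ctnnd2, which is abundant in the nervous system, was at least 43.9-fold lower in Fibroblasts than in Control-NSC, Cdh20 was lower by at least 3.98-fold and Cdh4 by at least 2.61-fold, whereas Cdh3 (P-cadherin) was at least 2.31-fold higher. Of 27 repressor complex partners and regulators of Snai stability, 2 were higher and 10 lower in all 5 comparisons. Of the 26 detected in both kinds of cell, 1 was higher and 10 lower (3.8% and 38.5%, against 17.5% and 24.3%). Ezh2, the polycomb methyltransferase, was 4.39-fold to 10.4-fold lower in Fibroblasts, and Kdm1a, the histone demethylase that Snail recruits, was 1.90-fold lower than in Control-NSC. Lox, a collagen cross-linking enzyme, was at least 48.8-fold higher. The lists share Cdh1, Cdh3, Jup, Lox, Loxl2, Tcf3 and Tcf12.

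**Figure D5:**
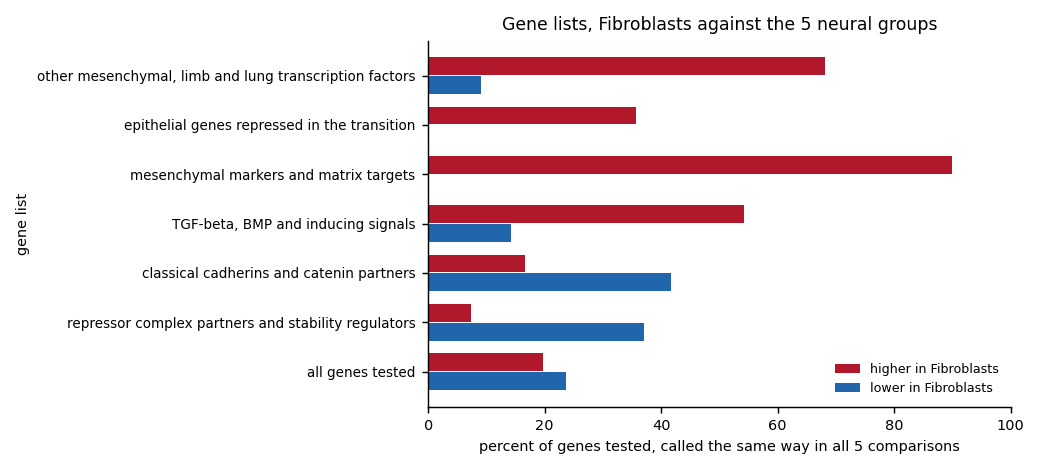
Percent of the tested genes of each list (vertical axis) called higher or lower in Fibroblasts in all 5 comparisons (horizontal axis, from 0), with all 10144 genes at the bottom. Mesenchymal markers have 27 of 30 genes higher and 0 lower, whereas cadherins and catenins have 2 of 12 higher and 5 lower.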

How the data were processed

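The deposited raw table gives a signal intensity on a linear scale, not normalized, and a detection p-value for each probe and array, which the authors read out with BeadStudio 3.2. The authors also deposited normalized log2 values, made with RMA-type background correction in lumi, which served as an alternative.

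Intensities were corrected with limma 3.58.1 in R 4.3.3 by normexp with negative controls inferred from detection p-values (offset 16), quantile-normalized and put on a log2 scale. The filter kept 14869 of 25697 probes. Symbols came from the platform annotation, updated through the RefSeq table of GRCm38.p6. A gene took its kept probe with the highest mean. lmFit, contrasts.fit and eBayes over 12 arrays gave 15 contrasts of 6 group means with 6 residual and 5.82 prior degrees of freedom. The script was tested on simulated data.

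The members and lists were chosen with earlier results of these data known. The naming rule covered the members' probes, from each list up to 6 genes called the same way in all 5 Fibroblasts comparisons, ranked by their smallest absolute difference, and up to 4 called in each other comparison, and for each member the 3 genes of highest r, of which the text may name fewer. Snai3, Vim, Cdh1 and Mmp14 were chosen after their values were seen. Alternatives changed the background step (an offset of 50, or none), the scaling (medians, or the deposited log2 values) and the filter (none, or detection at 0.01). Others averaged or separated the kept probes of a gene, used a trended robust prior, blocked on replicate number, fitted just the groups compared, or left out 1 array at a time.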

Additional observations from a re-analysis of the deposited data

Results flagged for a closer look

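No member met a criterion for a closer look, and groups of 2 arrays are too small for a search for single stray arrays. Among the 142 members and list genes tested, 9 (6.34%) had a late-early change that differed between lung and limb pNSCs in limma's test of that difference, close to the 5.66% of all genes. Only 3 of the 9 were detected in all 4 pNSC groups. For Osr2 the change in lung minus that in limb was -1.42 (adjusted p = 0.00067), with changes of 1.79 in limb and 0.37 in lung. For the BMP receptor gene Bmpr1b it was -0.74 (adjusted p = 0.032), with 0.41 in limb and -0.34 in lung. For the ligand gene Wnt5a it was 0.87 (adjusted p = 0.045), with -1.40 in limb and -0.53 in lung.

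The other 6 were at background in at least 1 of the 4 groups, so their values rest partly on undetected signals. Thy1, a surface glycoprotein of fibroblasts and neurons, had a difference of 2.68 (adjusted p = 1.4e-06 by limma). Of the 4 pNSC groups it was detected in elpNSCs-early alone, at least 4.86-fold above elpNSCs-late. The mesoderm homeobox gene Meox2 (-1.63, adjusted p = 0.00084 by limma) was detected in elpNSCs-late alone of these 4 groups, at least 2.80-fold above elpNSCs-early. Loxl1, an elastin cross-linking enzyme (-1.40, adjusted p = 0.00057 by limma), was detected in alpNSCs-early alone of these 4 groups, at least 2.07-fold above alpNSCs-late. Acta2, smooth muscle actin (-1.41, adjusted p = 0.0004), rose 2.14-fold in limb and was detected on 1 of 2 arrays in alpNSCs-early and on 0 in alpNSCs-late. The matrix protease genes Mmp2 (1.34, adjusted p = 0.011) and Mmp14 (0.61, adjusted p = 0.048) were detected on both arrays of elpNSCs-early and on 0 of elpNSCs-late.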

How the results depend on the processing

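Across 23 alternatives, of which 12 left out an array, no result changed direction past the threshold. All 30 results for Snai1, Twist1, Twist2, Prrx1, Zeb1 and Cdh2 in Fibroblasts against the 5 neural groups kept their call. The 3 Zeb2 results against alpNSCs-early, elpNSCs-late and alpNSCs-late lost or gained it. Median scaling put the median of all genes at -0.24 in Fibroblasts against elpNSCs-late, in place of -0.12.

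The count of called members was less stable among neural groups, and the cause was not tested. Against Control-NSC, elpNSCs-early had 2 called members, but 1 under median scaling, 1 with the mean over kept probes and 0 with only the arrays compared. alpNSCs-early had 2, but 1 with an offset of 50, 0 without background correction, 1 with the deposited values, 1 without a detection filter and 1 with the mean over kept probes, and 3 with only the arrays compared, through Prrx1 (0.59, adjusted p = 0.046). elpNSCs-late had 2, but 0 with an offset of 50, without background correction, with the deposited values or without a detection filter, and 1 with the mean over kept probes, with each probe alone or with an intensity trend. alpNSCs-late had 0, but 1 with only the arrays compared. The mean of the pNSC groups had 2, but 1 without background correction and 1 with the mean over kept probes. elpNSCs-late against elpNSCs-early had 0, but 1 under median scaling. alpNSCs-early against elpNSCs-early had 1, but 0 with an offset of 50, without background correction, without a detection filter or with the mean over kept probes.

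Leaving out each array gave 1 to 2 called members in elpNSCs-early against Control-NSC, 0 to 3 in alpNSCs-early, 0 to 2 in elpNSCs-late, 0 to 1 in alpNSCs-late and 0 to 3 for the mean. It gave 0 to 1 in elpNSCs-late against elpNSCs-early, 0 to 2 in alpNSCs-early against elpNSCs-early, 0 to 1 for the difference of late-early changes and 4 to 7 epithelial genes in Fibroblasts against elpNSCs-early. A group left with 1 array was assumed to vary like the others.

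Same-numbered arrays deviated together with correlations of -0.15 to 0.24 over 15 group pairs, 10 of them over 0.1, so the numbers were not taken to pair the samples. With the replicate number as a block, elpNSCs-late against elpNSCs-early had 1 called member, Cdh2 (-0.58, adjusted p = 0.0054). Cdh2 was then also called against Control-NSC in alpNSCs-early (0.47, adjusted p = 0.018) and in the mean of the pNSC groups (0.45, adjusted p = 0.0063), giving 3 called members in each, and Zeb2 lost its call in Fibroblasts against elpNSCs-late (adjusted p = 0.0504). Background limits Twist2 to bounds against every neural group and Twist1 against both alpNSC groups. Other folds between Fibroblasts and a neural group average in 1 undetected array. These are Twist1 against Control-NSC and both elpNSC groups, Prrx1 against Control-NSC and elpNSCs-early, and Snai1 against alpNSCs-early.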
